A study of Mus musculus with 4 samples.

Results

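The genes of the chemokine system were followed in dermal cells of mouse skin, across virgin and pregnant mice, abdominal and dorsal skin, and a Src inhibitor. Members were all genes whose probe sets carry a single gene symbol that names a CC, CXC, CX3C or XC chemokine ligand or a CC or CXC chemokine receptor. These were 47 of the 18193 genes with a single symbol on the array, 33 of them ligands and 14 receptors, measured by 74 probe sets. Each probe set combines several oligonucleotide probes of a transcript, and a gene with more than 1 of them was described by the one with the highest mean log2 signal over the arrays, unless another is named. Of the 47 genes, 30 had 1 probe set and 17 had several. A further 4 probe sets that carry several symbols were left out, so *Ccl19* and the *Ccl21* genes have no value here.

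The series held 4 Affymetrix arrays of total RNA from dermal cell suspensions of C57BL/6 females, with 1 array per condition. Mice were 10 weeks old by the sample labels and 8 to 12 weeks old by the series text. The conditions were virgin abdominal skin, 15 dpc dorsal skin and 15 dpc abdominal skin, all after DMSO, and 15 dpc abdominal skin after PP2, an inhibitor of Src family kinases. Arrays are named virgin, dorsal, abdominal and PP2 after their samples, and the abdominal array was compared with each of the others. Titles give 15 dpc (days post coitum), and sample descriptions give 16 dpc. All mice, controls included, had been injected intradermally 2 times a day for 4 days with 100 µl of DMSO or of 1 mM PP2, from 12 dpc in the pregnant animals. Subcutaneous fat was cut away and the cells were released by dispase, collagenases and hyaluronidase. The sources used here do not say whether an array holds 1 mouse or a pool. With no replicate, no difference has an error or a test, and every ratio compares 2 arrays rather than 2 conditions.

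Chemokines are small secreted proteins that bind heparan sulphate and steer leukocytes along gradients, and their receptors are G protein-coupled receptors carried mainly by leukocytes. CXC ligands with an ELR motif attract neutrophils through CXCR2, the interferon-induced CXC ligands attract T and natural killer cells through CXCR3, and most CC ligands attract monocytes, eosinophils, dendritic cells or lymphocytes. In skin they come from fibroblasts, keratinocytes, endothelium, macrophages and mast cells, some at rest and others within a short time of injury or cytokine exposure. In bulk samples such as these, fewer cells of a type and less RNA per cell cannot be told apart.

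The 4 arrays called a like share of probe sets present, between 58.4% and 59.7%. *Gapdh* has control probe sets at both ends of its transcript, and their 3′ over 5′ ratio is a sign of RNA integrity. It was 2.51 on the virgin, 2.97 on the dorsal, 1.41 on the abdominal and 5.84 on the PP2 array. That of *Actb* was 2.64, 4.14, 2.03 and 2.70 in the same order. The suspensions held the cells of the labelled tissue and others: all 8 fibroblast markers and all 7 blood endothelial markers were detected, and so were all 9 keratinocyte markers. The summed signal of the keratinocyte markers was 74158 on the virgin, 127938 on the dorsal, 92582 on the abdominal and 54768 on the PP2 array. The 13 immediate early and heat shock genes that are induced when tissue is dissociated were detected in full, with summed signals of 239235, 247406, 154571 and 168353 in the same order, lowest on the abdominal array.

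The upstream sequences of 4 members are shown because these chromosome 5 genes were all lower on the abdominal than on the PP2 array, by more than a ratio of 2. *Cxcl1* and *Cxcl2* lie next to each other, and *Cxcl9* and *Cxcl10* are neighbours too. Each sequence holds the 250 bases before the transcription start of the RefSeq annotation of GRCm38.p6, written 5′ to 3′ along the gene. Capitals mark matches to a κB-like motif, GGG, any 3 bases and TTCC, the kind of element bound by NF-κB, or to an ISRE-like motif, GAAA, any 2 bases and GAAA, the kind bound by interferon-activated factors. Both strands were searched, and overlapping matches run together. The windows are chr5:90890995-90891244 on the plus strand, chr5:90903649-90903898 on the plus strand, chr5:92328080-92328329 on the minus strand and chr5:92348890-92349139 on the minus strand.
Cxcl1: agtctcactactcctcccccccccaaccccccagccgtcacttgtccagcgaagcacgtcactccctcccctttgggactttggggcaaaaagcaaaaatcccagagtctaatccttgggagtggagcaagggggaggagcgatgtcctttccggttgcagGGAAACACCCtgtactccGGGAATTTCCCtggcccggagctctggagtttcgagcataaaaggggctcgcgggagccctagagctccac
Cxcl2: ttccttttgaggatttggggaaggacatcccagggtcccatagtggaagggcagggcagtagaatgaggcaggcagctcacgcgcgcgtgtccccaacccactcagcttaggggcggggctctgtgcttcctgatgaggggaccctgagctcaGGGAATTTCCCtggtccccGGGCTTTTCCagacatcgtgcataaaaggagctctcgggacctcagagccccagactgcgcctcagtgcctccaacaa
Cxcl9: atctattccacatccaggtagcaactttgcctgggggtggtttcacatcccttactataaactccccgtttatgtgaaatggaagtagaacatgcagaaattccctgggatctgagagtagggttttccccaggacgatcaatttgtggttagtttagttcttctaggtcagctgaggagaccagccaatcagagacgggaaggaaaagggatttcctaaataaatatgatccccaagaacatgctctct
Cxcl10: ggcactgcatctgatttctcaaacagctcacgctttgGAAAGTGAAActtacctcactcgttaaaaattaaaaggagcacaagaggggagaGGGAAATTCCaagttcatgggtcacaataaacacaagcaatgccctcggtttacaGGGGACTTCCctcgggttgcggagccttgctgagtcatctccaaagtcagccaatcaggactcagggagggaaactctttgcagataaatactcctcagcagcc

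*Cxcl1* and *Cxcl2* share the stretch GGGAATTTCC, which starts 71 bases before the start of *Cxcl1* and 97 bases before that of *Cxcl2*. The window of the undetected *Cxcl3*, on the same chromosome, holds it at 73 bases. *Cxcl10* holds 2 κB-like matches and 1 ISRE-like match, and *Cxcl9* holds neither. Of 32851 mouse promoters searched in the same window, 4.65% had a κB-like match, 2.98% an ISRE-like match and 0.11% both. The table held 38 promoters of 34 members, and 9 of these had a κB-like match (*Ccl1*, *Ccl9*, *Ccl20*, *Ccr3*, *Ccr6*, *Cxcl1*, *Cxcl2*, *Cxcl3* and *Cxcl10*) and 2 an ISRE-like match (*Cxcl10* and *Cxcl14*). A match is a run of letters and not evidence of binding, and the promoters of *Ccl2*, *Ccl7* and *Ccl11* were not searched here.

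Of the 47 members, 26 were detected on at least 1 array, meaning that the probe set was called present there. These were 21 of 33 ligands and 5 of 14 receptors. All 4 arrays detected 15 of them, namely 13 ligands and the receptors *Cxcr4* and *Ccr9*. The virgin array detected 22, the dorsal array 19, the abdominal array 18 and the PP2 array 23. The undetected ligands were *Ccl1*, *Ccl3*, *Ccl5*, *Ccl12*, *Ccl17*, *Ccl20*, *Ccl22*, *Ccl24*, *Ccl25*, *Cxcl3*, *Cxcl5* and *Cxcl17*, and the undetected receptors were *Ccr1*, *Ccr3*, *Ccr4*, *Ccr7*, *Ccr8*, *Ccr10*, *Cxcr2*, *Cxcr5* and *Cxcr6*. Signals of these 21 genes lay between 1.04 and 121. *Ccl25* had a second probe set that was called present on 3 arrays, at signals between 60.2 and 78.4 on the 4 arrays. Several ligand and receptor pairs were thus seen on the ligand side alone, such as *Ccl11* without *Ccr3*, *Cxcl1* without *Cxcr2* and *Cxcl16* without *Cxcr6*.

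The detected members varied more between the arrays than most genes did. Over the 15 members detected on all 4 arrays, the median ratio of the highest to the lowest signal was 3.03. It was 1.51 over the 11086 genes of the whole array that were detected on all 4. These sets were not matched for signal level. Of the 26 detected members, 11 had their highest signal on the virgin, 7 on the PP2, 5 on the dorsal and 3 on the abdominal array, whereas 21.6%, 28.6%, 27.7% and 22.1% of all detected genes peaked there. The lowest signal of 7 members was on the abdominal and of 9 on the dorsal array, against 19.1% and 30.8% of all detected genes.

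**Figure D1:**
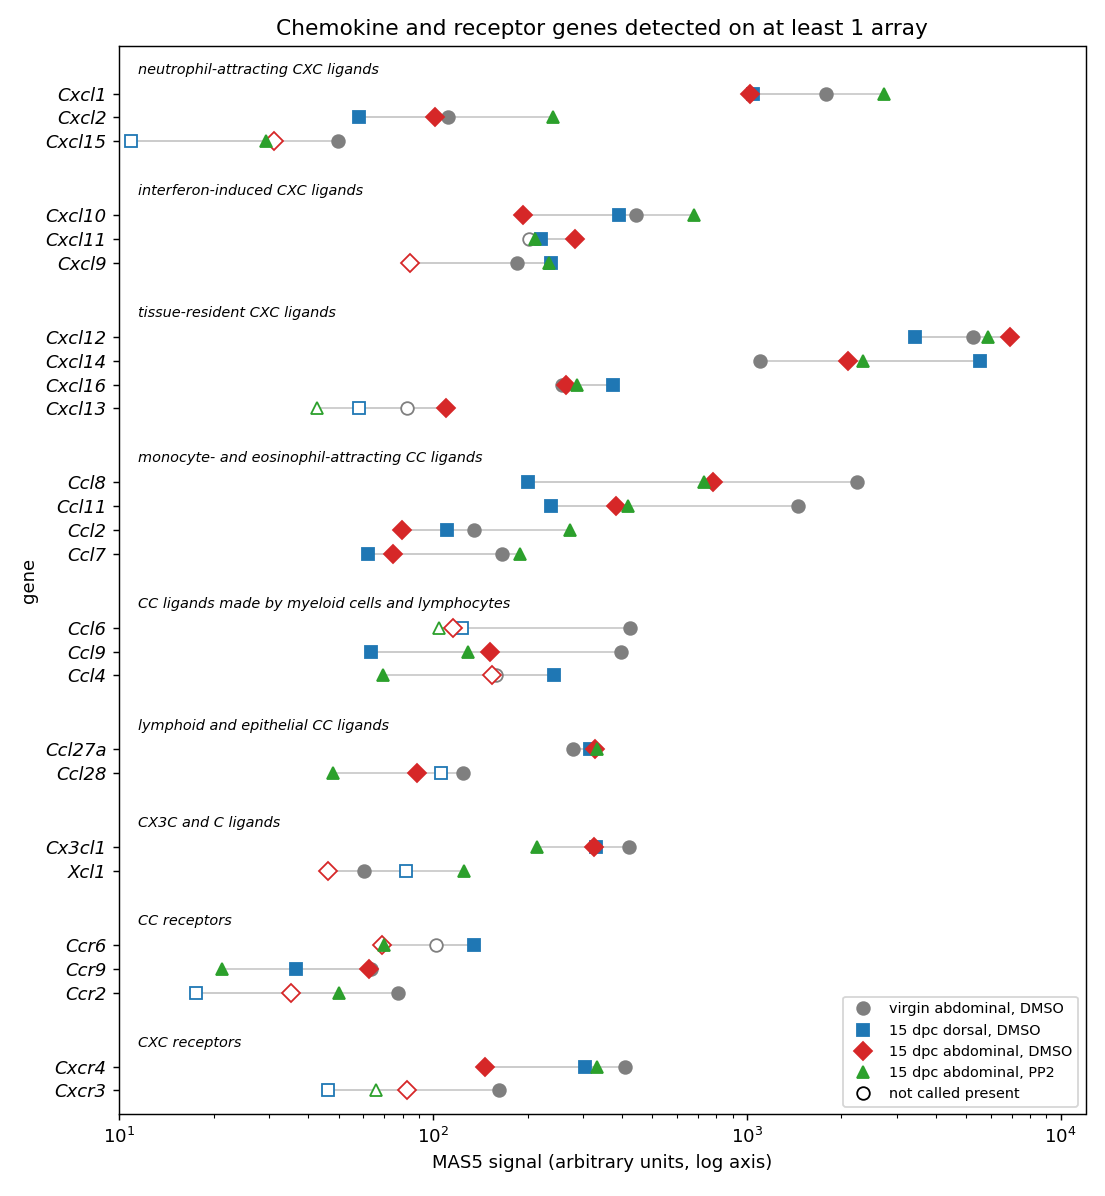
MAS5 signal, in arbitrary units on a log axis, of the 26 detected ligand and receptor genes on the 4 arrays, grouped by role, with open symbols where the array did not call the gene present. The virgin array holds the highest signals of *Ccl8*, *Ccl11*, *Ccl6* and *Ccl9*, the PP2 array those of *Cxcl1*, *Cxcl2*, *Cxcl10* and *Ccl2*, and the abdominal array the lowest of *Cxcl9*, *Cxcl10* and *Cxcr4*.

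Pregnancy was addressed by the comparison of the abdominal with the virgin array, and here the chemokine genes lay mostly on the low side on the abdominal array. A gene was counted as higher or lower when its signals differed by more than a ratio of 2 and the brighter array called it present. Of 24 members tested, which were those present on at least 1 of the 2 arrays, 9 were lower on the abdominal array, namely *Ccl6*, *Ccl7*, *Ccl8*, *Ccl9*, *Ccl11*, *Cxcl9*, *Cxcl10*, *Ccr2* and *Cxcr4*. That is 37.5%, and 3.55% of the 12744 genes tested across the array were lower by the same rule. No member was higher by its representative probe set, and 3.41% of all genes were. The median log2 ratio of the 24 members was -0.72, whereas the median over all genes was 0.02. The ratio lay below 0 in 18 of the members and in 47.2% of all genes. Only *Ccl6* and *Ccl11* were past a ratio of 3.

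The Src inhibitor was addressed by the comparison of the abdominal with the PP2 array. Here 8 members, most of them inducible ligands, were lower on the abdominal array. Among 24 members tested, the 8 were *Ccl2*, *Ccl7*, *Cxcl1*, *Cxcl2*, *Cxcl9*, *Cxcl10*, *Xcl1* and *Cxcr4*, or 33.3% against 3.74% of the 12955 genes tested. *Cxcl13* and *Ccr9* were higher, beside 4.89% of all genes. With the arrays scaled to one median, 4.63% of all genes were lower and 3.9% higher, and with quantile normalisation 4.8% and 3.32%. The median log2 ratio of the members was -0.07 and that of all genes 0.00, and with all 47 members taken whatever their calls the members' median was 0.20. The PP2 array is also the one with the largest 3′ to 5′ ratio of *Gapdh*, though not of *Actb*. The abdominal array, which enters every comparison, had the lowest ratio of both. The part of RNA integrity in the ratios of any comparison was not tested.

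Body site was addressed by the comparison of the abdominal with the dorsal array of pregnant mice, where members went both ways. Of 21 members tested, 3 were higher on the abdominal array (*Cxcl12*, *Ccl8* and *Ccl9*), beside 5.25% of the 12808 genes tested, and 4 were lower (*Cxcl14*, *Cxcl9*, *Cxcl10* and *Cxcr4*), beside 4.96%. The median log2 ratio of the members was -0.02 and that of all genes 0.04. *Cxcl10* and *Cxcr4* stood just past the threshold, at ratios of 2.02 and 2.08, and both fell short of it when the arrays were scaled to one median or quantile normalised. All 3 comparisons share the abdominal array, so a low or high value there enters each of them.

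**Figure D2:**
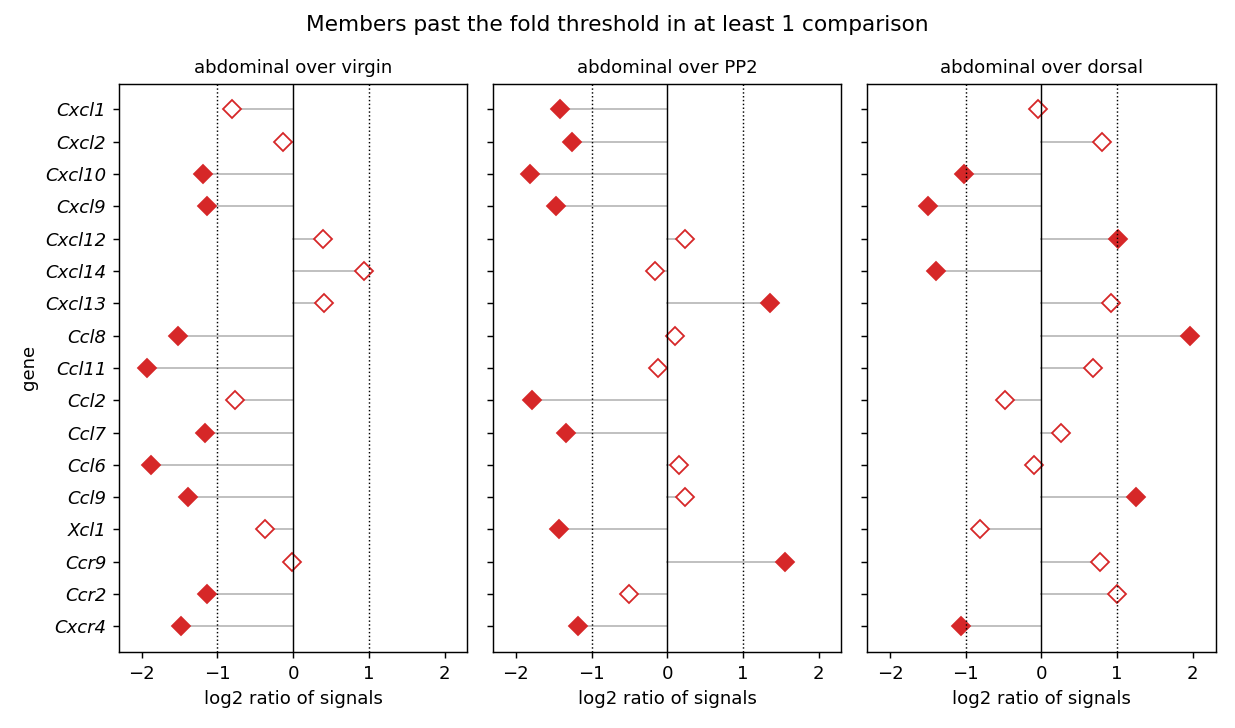
Log2 ratio of the abdominal signal over that of the virgin, PP2 and dorsal array for the 17 members counted as higher or lower in at least 1 comparison, with filled symbols where the gene was counted and dotted lines at a ratio of 2. *Cxcl9*, *Cxcl10* and *Cxcr4* lie left of the lines in all 3 panels, *Ccl8* and *Ccl9* lie left against virgin and right against dorsal skin, and *Cxcl1*, *Cxcl2* and *Ccl2* are filled against the PP2 array alone.

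Counted against all 3 other arrays at once, 4 members were more than 2 times higher on the virgin array than on each of the others (*Ccl6*, *Ccl8*, *Ccl9* and *Ccl11*), beside 0.568% of the 13375 genes detected anywhere. *Ccl2* and *Cxcl2* were so on the PP2 array, beside 0.262%, *Cxcl14* on the dorsal array, beside 1.14%, and no member on the abdominal array, beside 0.83%. In the other direction, *Cxcl9*, *Cxcl10* and *Cxcr4* were lower on the abdominal array than on each of the others, beside 0.695% of all genes, and *Ccl8* and *Ccl9* on the dorsal array, beside 1.46%. No member was so on the virgin or the PP2 array, beside 0.464% and 0.957%. Without the PP2 array, the same 3 genes were lowest on the abdominal array, beside 1.1% of all genes, and *Ccl7* and *Ccr2* joined the 4 genes highest on the virgin array, beside 1.22%.

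Among the CC ligands that attract monocytes and eosinophils, *Ccl11* encodes eotaxin-1, the ligand of CCR3 on eosinophils. Its signal was 1460 on the virgin, 238 on the dorsal, 383 on the abdominal and 419 on the PP2 array. The virgin array thus stood above all 3 arrays of pregnant mice, 3.81-fold above the abdominal array, while the abdominal and PP2 arrays were within 1.09-fold. *Ccl8*, a ligand of CCR8 in the mouse, read 2239, 201, 782 and 728 in the same order. The abdominal array lay 2.86-fold below the virgin and 3.90-fold above the dorsal array, and the abdominal and PP2 arrays differed by 1.07-fold. The abdominal and PP2 arrays thus held a signal of both genes between those of the dorsal and the virgin array.

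*Ccl2* and *Ccl7*, whose proteins recruit monocytes through CCR2, followed another order. *Ccl2* read 135 on the virgin, 111 on the dorsal, 79.7 on the abdominal and 274 on the PP2 array. The abdominal array was the lowest, with the PP2 array 3.43-fold above it, and the virgin array stood 1.70-fold above it. *Ccl7* read 166, 62.2, 74.5 and 189, which placed the virgin and PP2 arrays high and both DMSO arrays of pregnant mice low. It was 2.23-fold lower on the abdominal than on the virgin array and 2.54-fold lower than on the PP2 array. In the RefSeq gene order *Ccl2*, *Ccl7*, *Ccl11*, *Ccl12* and *Ccl8* follow one another on chromosome 11. Of the detected 4, only *Ccl2* and *Ccl7* differed past a ratio of 2 between the abdominal and PP2 arrays. *Ccl12* and *Ccl24*, a second eotaxin, were not detected.

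*Ccl6* and *Ccl9*, CC ligands of the rodent myeloid lineage that act through CCR1, lie next to each other on the same chromosome and were high on the virgin array as well. *Ccl9* read 396 on the virgin, 63.5 on the dorsal, 152 on the abdominal and 129 on the PP2 array. The abdominal array lay 2.61-fold below the virgin and 2.39-fold above the dorsal array, the same order as *Ccl8*. Its second probe set, called present on the abdominal array alone, read 55.7, 5.24, 63.6 and 38.1 and did not share the difference from the virgin array. *Ccl6* read 426 on the virgin array, where it was called present, and 124, 116 and 104 on the dorsal, abdominal and PP2 arrays, where it was not. It was therefore at least 3.68-fold lower on the abdominal than on the virgin array, and its second probe set, at 108 and 38.6, gave at least 2.79-fold. That probe set was called present on the dorsal array at 58.4 and on the PP2 array at 42.9, and the virgin array did not stand more than 2 times above the dorsal one by it. *Ccl4* was detected on the dorsal array at 243 and on the PP2 array at 69.5, and was 159 and 154 without a present call on the virgin and abdominal arrays.

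Markers of macrophages and monocytes moved with the virgin array in part. Of 10 measured, 8 were detected and *Itgam* and *Fcgr1* were not, and the summed signal of the list was 9064 on the virgin, 8946 on the dorsal, 6696 on the abdominal and 8570 on the PP2 array. *Lyz1* and *Lyz2*, the lysozyme genes, carried most of this sum and were lowest on the abdominal array, whereas the other 6 detected genes were all lowest on the dorsal array and summed to 2633, 879, 2025 and 1556 in the same order. *Mrc1* and *Cd163*, scavenger receptors of tissue macrophages, were lower on the abdominal than on the virgin array. Both passed a ratio of 2, as did 3.55% of all genes. *Csf1r* and *Cd14* went the other way, at 942 and 278 on the abdominal against 903 and 203 on the virgin array. *Csf1r*, *Adgre1*, *Mrc1* and *Cd163* were more than 2 times higher on the abdominal than on the dorsal array, as were *Ccl8* and *Ccl9*. The share of all genes was 5.25%. The part of macrophage number in the *Ccl* differences was not tested.

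Of the 5 neutrophil-attracting CXC ligands, *Cxcl1* and *Cxcl2* were lower on the abdominal than on the PP2 array. *Cxcl1*, a CXCR2 ligand released by stromal cells, read 1785 on the virgin, 1049 on the dorsal, 1022 on the abdominal and 2735 on the PP2 array. The PP2 array was the highest and 2.68-fold above the abdominal array, the virgin array was 1.75-fold above it, and the dorsal array was within 1.03-fold. Its second probe set gave the same order of virgin and PP2 above both other arrays, with 1424, 831, 920 and 2529 and a PP2 ratio of 2.75. The third probe set read 732, 790, 623 and 813, a ratio of 1.30 that did not pass the threshold. *Cxcl2*, whose protein binds the same receptor, read 111, 58.0, 101 and 242. The abdominal array lay 2.39-fold below the PP2 array and close to the virgin array, at a log2 ratio of -0.14. *Cxcl15*, known from lung epithelium of the mouse, was present on the virgin array at 49.8 and on the PP2 array at 29.3 and was not called present on the other 2 arrays, and *Cxcl3* and *Cxcl5* were not detected.

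Neutrophil markers themselves were mostly undetected. Of 9 measured, 3 were detected on some array, *Elane*, *Camp*, *Ngp*, *Csf3r*, *Mmp8* and *Mmp9* were detected on none, and the summed signal of the 3 was 190 on the virgin, 166 on the dorsal, 144 on the abdominal and 179 on the PP2 array. A further list held NF-κB pathway and acute cytokine genes, adhesion molecule genes among them. Of 13 tested, 4 were lower on the abdominal than on the PP2 array, namely *Il6*, *Tnfaip3*, *Ptgs2* and *Bcl3*. None was higher, and the shares of all genes were 3.74% lower and 4.89% higher. *Il6*, an acute-phase cytokine, read 3127, 2897, 1978 and 8093 in the order virgin, dorsal, abdominal and PP2, a 4.09-fold difference between the last 2. *Bcl3*, an IκB family member, read 378, 301, 236 and 735. *Nfkbia*, which encodes IκBα, read 26246, 31362, 18729 and 16278, so that gene of the same list was not higher on the PP2 array. *Tnf* and *Il1a* were not detected.

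*Cxcl9* and *Cxcl10*, of the 3 interferon-induced CXC ligands, were lower on the abdominal array than on every other array. *Cxcl10*, a CXCR3 ligand, read 442 on the virgin, 392 on the dorsal, 194 on the abdominal and 680 on the PP2 array. It was 2.28-fold, 2.02-fold and 3.51-fold lower on the abdominal array than on the virgin, dorsal and PP2 arrays. *Cxcl9*, the neighbouring CXCR3 ligand that interferon-γ induces, was present at 185, 237 and 234 on the virgin, dorsal and PP2 arrays and read 84.3 without a present call on the abdominal array. That is at least 2.19-fold, 2.81-fold and 2.78-fold lower. A second probe set of *Cxcl9* read 127, 135 and 112 against 46.4, again not present on the abdominal array alone. *Cxcl11*, next in the gene order, went another way, with 202 on the virgin array without a present call and 220, 283 and 212 on the dorsal, abdominal and PP2 arrays. Its second probe set was 5.25-fold higher on the abdominal array, at 88.4, than on the PP2 array, at 16.8.

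Other genes of the interferon response were given by counts. Of 10 tested, 9 had a log2 ratio below 0 against the virgin array, 7 against the PP2 array and 4 against the dorsal array. The shares of all genes below 0 were 47.2%, 49.6% and 46.6%. Past a ratio of 2, *Irf1* and *Mx1* were lower on the abdominal than on the virgin array, *Irf1* was also lower when set against the PP2 array, and none was lower than on the dorsal array, beside 3.55%, 3.74% and 4.96% of all genes. *Irf1*, a transcription factor that interferon-γ induces, read 6776 on the virgin, 3558 on the dorsal, 2834 on the abdominal and 5851 on the PP2 array, an order shared with *Cxcl10* except for its top. The median log2 ratio of the list was -0.67 against the virgin, -0.19 against the PP2 and 0.14 against the dorsal array. T and natural killer cell markers were sparse, with 6 of 11 detected on some array and *Cd3e*, *Cd3d*, *Cd4*, *Ncr1* and *Gzmb* on none. Their summed signal was 664, 438, 609 and 490 on the virgin, dorsal, abdominal and PP2 arrays.

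Of the CXC ligands that tissues make at rest, *Cxcl12* and *Cxcl14* passed the threshold against the dorsal array and not against the PP2 array. *Cxcl12*, the CXCR4 ligand made by fibroblasts and perivascular cells, read 5258 on the virgin, 3429 on the dorsal, 6912 on the abdominal and 5878 on the PP2 array. It was 2.02-fold higher on the abdominal than on the dorsal array and within 1.31-fold of the other arrays, and its second probe set gave 2.67-fold against the dorsal array from 4099 and 1533. The summed signal of the fibroblast markers was lowest on the dorsal array too, at 75830. It was 113939, 107307 and 95198 on the virgin, abdominal and PP2 arrays. Of the markers, 4 of 8 (*Col1a1*, *Lum*, *Fbln1* and *Dpt*) were more than 2 times higher on the abdominal than on the dorsal array. The share of all genes was 5.25%. *Col1a2*, *Col3a1* and *Dcn* were higher on the abdominal array without passing a ratio of 2. *Pdgfra* went the other way, at 1778 on the abdominal against 2285 on the dorsal array. *Cxcl14*, a chemokine abundant in healthy epithelium, read 1099, 5518, 2104 and 2347. It was 2.62-fold lower on the abdominal than on the dorsal array and 1.91-fold higher than on the virgin array, while its second probe set gave 1.95-fold and 2.01-fold. The keratinocyte sum was highest on the dorsal array as well. Of its 9 genes, *Lor* and *Flg* were more than 2 times higher there than on the abdominal array, beside 4.96% of all genes. *Krt14* and *Trp63* went the other way, at 14877 and 5999 on the abdominal against 13083 and 4685 on the dorsal array. The part of fibroblasts or keratinocytes in these ratios was not tested.

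*Cxcl16*, a membrane-bound ligand of CXCR6, was detected on all arrays between 257 and 374, and its second probe set between 240.5 and 312. *Cxcl13*, the CXCR5 ligand that guides B cells, was present on the abdominal array alone, at 110, and read 82.6, 58.0 and 42.6 on the virgin, dorsal and PP2 arrays. It was at least 2.57-fold higher on the abdominal than on the PP2 array, and its second probe set, at 109 and 54.7 and present on both, gave 1.99-fold. That probe set read 44.1 on the virgin and 30.5 on the dorsal array without a present call, which puts the abdominal signal at least 2.47-fold and 3.57-fold above them. The epithelial ligand *Ccl27a*, which attracts skin-homing T cells through CCR10, varied little, at 280, 316, 329 and 333. *Ccl28*, a further CCR10 ligand, was highest on the virgin array at 124 and lowest on the PP2 array at 48.1, with 88.7 on the abdominal array and 106 without a present call on the dorsal array.

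*Cx3cl1*, a membrane-anchored ligand that endothelium presents to CX3CR1, read 421 on the virgin, 330 on the dorsal, 326 on the abdominal and 214 on the PP2 array. It was 1.52-fold higher on the abdominal than on the PP2 array and did not pass the threshold. A second probe set, present on the abdominal array alone, read 69.5 there and 22.0 on the PP2 array, a ratio of at least 3.15. Its receptor gene *Cx3cr1* was not detected. *Xcl1*, a product of T and natural killer cells that attracts cross-presenting dendritic cells, was present on the virgin array at 60.2 and on the PP2 array at 125, and read 81.7 and 46.4 without a present call on the dorsal and abdominal arrays. It was at least 2.70-fold lower on the abdominal than on the PP2 array.

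**Figure D3:**
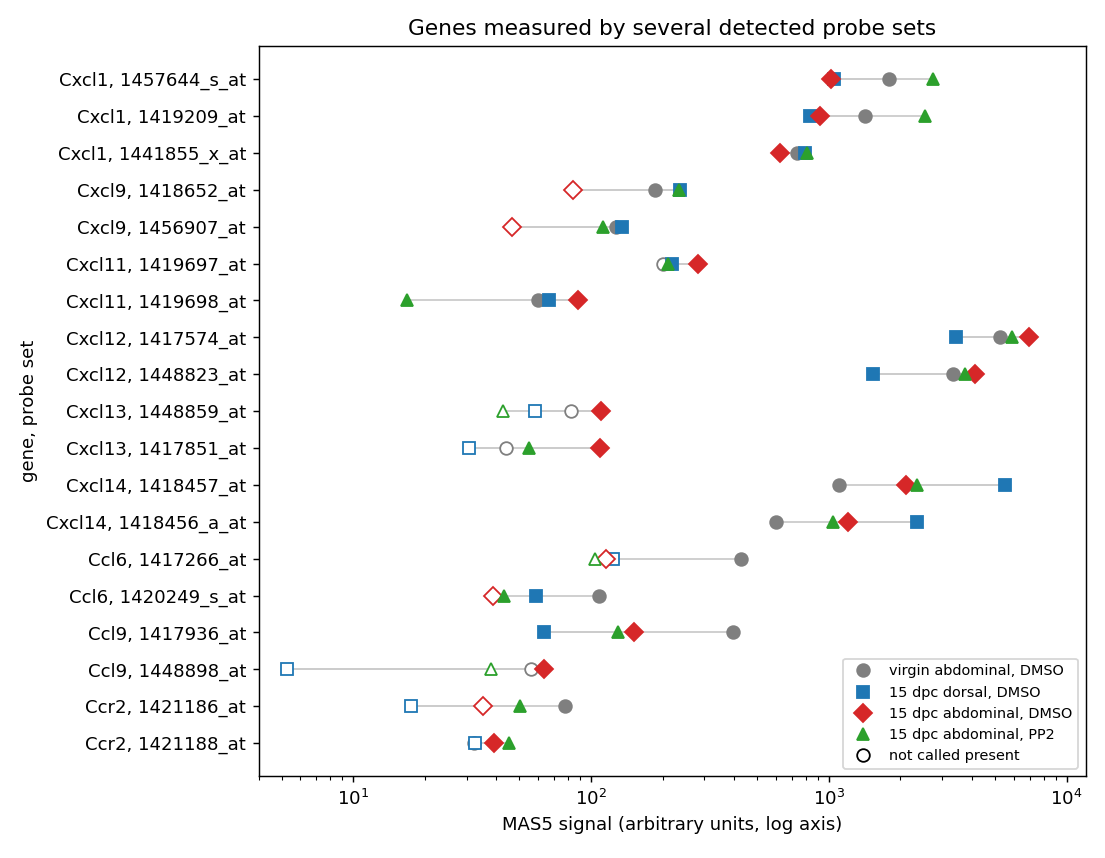
MAS5 signal, in arbitrary units on a log axis, of each detected probe set of 9 genes measured more than once, with open symbols where the array did not call it present. The probe sets of *Cxcl9*, *Cxcl12* and *Cxcl14* keep the place of the lowest or highest array, whereas those of *Ccl9* and *Ccr2* differ in where the virgin array falls and the third of *Cxcl1* shows a narrower spread.

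Among the receptors, *Cxcr4*, which binds CXCL12 and is carried by most leukocytes and some endothelial cells, read 409 on the virgin, 306 on the dorsal, 147 on the abdominal and 334 on the PP2 array. The abdominal array was the lowest, 2.79-fold below the virgin, 2.08-fold below the dorsal and 2.27-fold below the PP2 array, and it was also the array on which its ligand *Cxcl12* read highest. *Fosb*, an immediate early gene of the dissociation list, was likewise lower on the abdominal than on each other array. So were *Egr1*, *Atf3*, *Ier2*, *Ier3*, *Dusp1*, *Zfp36*, *Hspa1a*, *Hspa1b* and *Socs3* of the same list, some of them by little. *Fosb* alone of the 13 listed genes was more than 2 times lower there than on the PP2 array, beside 3.74% of all genes. *Fosb* and *Junb* passed that ratio against the virgin array, beside 3.55%, and *Fosb* and *Hspa1a* against the dorsal array, beside 4.96%. *Fos*, *Jun* and *Junb* were lower on the PP2 array, at 16605, 13058 and 2229 against 23394, 17474 and 3646 on the abdominal array. The part of cell isolation in the *Cxcr4*, *Cxcl9* and *Cxcl10* values was not tested. *Ccr9*, the CCL25 receptor of gut-homing T cells, was present on all arrays at 63.4, 36.5, 62.5 and 21.2 and 2.94-fold higher on the abdominal than on the PP2 array. *Ccr9* had 5 probe sets. A second one read between 18.7 and 25.6 and showed no such difference, but it was called present on neither the abdominal nor the PP2 array. The rest were called present on no array.

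*Ccr2*, the receptor of inflammatory monocytes for CCL2 and CCL7, was present on the virgin array at 77.4 and on the PP2 array at 50.1, and read 35.2 on the abdominal and 17.5 on the dorsal array without a present call. It was at least 2.20-fold lower on the abdominal than on the virgin array, but a second probe set, present on the abdominal array at 38.9 and not on the virgin array at 32.3, ran against that. *Cxcr3*, the receptor of activated T cells for CXCL9, CXCL10 and CXCL11, was present on the virgin array alone, at 162, with 46.1, 82.7 and 66.0 on the dorsal, abdominal and PP2 arrays. Its ratio of at least 1.96 between the virgin and abdominal arrays stood just short of the threshold. *Ccr6*, the CCL20 receptor of Langerhans cell precursors and T cells, was present on the dorsal array at 135 and on the PP2 array at 69.8, and read 102 and 68.5 on the virgin and abdominal arrays without a present call.

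Of the other genes of the chemokine system, 17 of 19 measured were detected and *Cx3cr1* and *Xcr1* were not. *Ackr1*, an atypical receptor of venules that binds chemokines without signalling, exceeded its virgin and dorsal signals on the abdominal array. It read 1191 on the virgin, 894 on the dorsal, 3171 on the abdominal and 1628 on the PP2 array, which is 2.66-fold and 3.55-fold. *Ackr2* and *Ackr3*, scavenging receptors for CC ligands and for CXCL12, were highest on the abdominal array without passing the threshold, at 777 and at 2560. *Ackr4*, which binds CCL19, CCL21 and CCL25, was at least 4.07-fold higher on the abdominal array, at 433, than on the PP2 array, where it read 106 and was not called present. The venular adhesion molecule gene *Sele* lay 2.17-fold above the virgin and 4.03-fold above the dorsal signal on the abdominal array, at 421, 227, 913 and 498 in the order virgin, dorsal, abdominal and PP2. The summed signal of the 7 blood endothelial markers was 25120, 21172, 25798 and 19644 in that order.

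*Pf4*, a platelet and macrophage CXC chemokine whose symbol lies outside the naming pattern, read 863, 152, 384 and 382, the order of *Ccl8* and *Ccl9*. *Dpp4*, which encodes a peptidase that trims several chemokines, was 2.05-fold lower on the abdominal than on the virgin array, at 645 and 1325. *Rgs2*, a brake on G protein signalling, was 2.06-fold lower on the abdominal than on the PP2 array, at 1450 and 2993. Of 17 tested each time, 1 gene was higher and 2 were lower against the virgin array, 1 was higher and 1 lower against PP2 skin, and against dorsal skin 3 were higher and 0 lower. The shares of all genes were 3.41% and 3.55%, 4.89% and 3.74%, and 5.25% and 4.96%. The list's median log2 ratios were -0.01, 0.17 and 0.02.

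**Figure D4:**
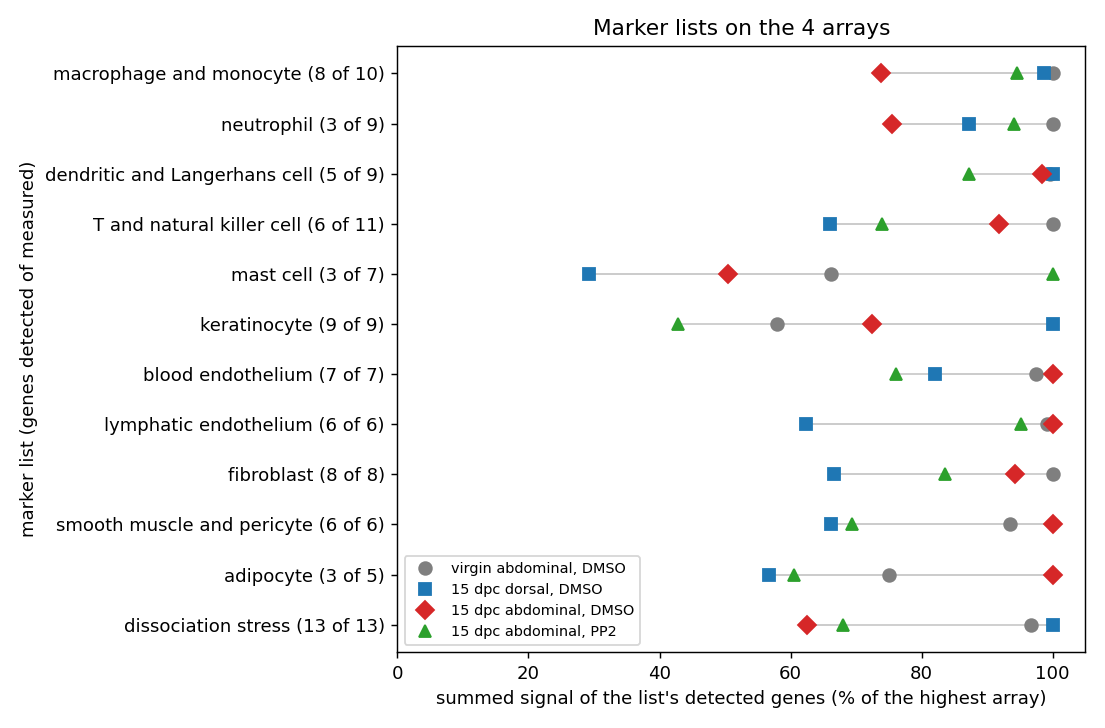
Summed signal of the detected genes of each marker list on the 4 arrays, as a percentage of the array with the highest sum, for lists with at least 3 detected genes. The dissociation list is lowest on the abdominal array, as is the macrophage list, whose sum is mostly lysozyme signal. The keratinocyte list is highest on the dorsal array. The mast cell list is highest on the PP2 array, where *Cma1* and *Cpa3* but not *Kit* have their highest signal.

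Mast cell and lymphatic marker signals also differed between the arrays. Of 7 mast cell genes, 3 were detected, namely *Cma1*, *Cpa3* and *Kit*. Their summed signal was 503 on the virgin, 222 on the dorsal, 383 on the abdominal and 760 on the PP2 array. *Cma1* and *Cpa3* were present on the PP2 array alone and were more than 2 times lower on the abdominal array, beside 3.74% of all genes. *Kit* went the other way, at 177 on the abdominal and 148 on the PP2 array. *Mcpt4*, *Tpsb2*, *Fcer1a* and *Ms4a2* were detected on no array. The summed signal of the lymphatic endothelial markers was lowest on the dorsal array. *Lyve1*, *Prox1* and *Mmrn1* were more than 2 times higher on the abdominal than on the dorsal array, beside 5.25% of all genes. *Reln* was lowest on the PP2 array, at 4378 against 4692 on the dorsal array. *Prox1* was 3.62-fold higher and *Lyve1* 2.28-fold lower on the abdominal than on the PP2 array. The part of any of these cell types in the chemokine differences was not tested.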

How the data were processed

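Total RNA of dermal cells was labelled with a 3′ IVT kit and hybridised to Mouse Genome 430 2.0 arrays. The authors deposited, for each of 45101 probe sets, a MAS5 signal (a linear intensity) and a detection call (present, marginal or absent). The submitters' processing notes name Affymetrix Expression Console version 1, and no further scaling is named. MAS5 brings the trimmed mean of every array to one target, so a ratio assumes equal total signal. Signals were used as deposited, 1 table per array, and 0 columns of values lacked a sample.

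Python 3.11.15, numpy 2.4.6 and pandas 2.3.3 were used. Symbols came from the platform annotation, and probe sets with several symbols were assigned to none. The representative probe set was the one with the highest mean log2 signal over the 4 arrays. A gene was counted as higher or lower above a ratio of 2 with a present call on the brighter array, and was tested where at least 1 of the 2 arrays detected it. Where the dimmer array did not call it present, the ratio is a lower limit, taken against the dimmer signal or the dimmest signal called present on that array, whichever was higher. Members counted in any comparison, the 8 brightest ligands and the 4 brightest receptors were to be given in full. Counting was tested on simulated data with known ratios. Members and lists were chosen with earlier results of these data known. The alternatives were other scalings, detection filters, thresholds and probe sets, and leaving out the PP2 array was chosen after seeing the data. With 4 arrays and no replicate, the number of arrays limits the precision.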

Additional observations from a re-analysis of the deposited data

How the results depend on the processing

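With the arrays scaled to one median, probe sets present on all arrays shifted in median log2 ratio by -0.11 against the PP2 array and by less against the others. Under this scaling and under quantile normalisation, 2 members rather than 4 were lower on the abdominal than on the dorsal array, and 1 rather than 3 was lowest on the abdominal array, since *Cxcl10* and *Cxcr4* no longer passed, beside 4.21% and 4.58%, and 0.65% and 0.718%, of all genes. The members' median log2 ratio against the virgin array was -0.60 with quantile normalisation and -0.49 over all members. Against the PP2 array it was -0.18 with one median, -0.21 with quantile normalisation and 0.20 over all members.

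Without a detection filter, counts of higher members were 3, 11 and 8 against the virgin, PP2 and dorsal arrays, with 7 highest on the virgin, 2 on the dorsal and 4 lowest on the dorsal array. The shares of higher genes over the whole array were then 7.45%, 10.4% and 9.05%, and those of the last 3 counts 2.02%, 2.83% and 3.44%. Requiring a present call on both arrays left 1 higher than on the PP2 array, beside 3.48%. At a ratio of 1.5, counts of higher members were 1, 4 and 7, with 7 highest on the virgin, 2 on the dorsal and 5 on the PP2 array and 5 lowest on the dorsal array, beside 9.86%, 12.8% and 12.6% and then 1.89%, 3.82%, 1.82% and 4.04% of all genes. At a ratio of 3, lower members were 2, 2 and 0 and higher members 0 against the PP2 and 1 against the dorsal array, with 2 highest on the virgin, 0 on the dorsal and 0 on the PP2 array, and 1 lowest on the dorsal and 0 on the abdominal array. The shares of all genes were then 1.18%, 1.42% and 1.83% lower, 1.66% and 2.26% higher, 0.164%, 0.277% and 0.0449% highest, and 0.479% and 0.172% lowest. Letting any probe set pass gave 2 higher than on the virgin and 4 higher than on the PP2 array, beside 5.69% and 12.6%. Other probe sets reversed *Ccl9*, to a log2 ratio of 0.19, and *Ccr2*, to 0.27, both against the virgin array. Of 26 ratios of counted genes, one median moved 10 and quantile normalisation 13 by over 0.1 on the log2 scale, and neither turned a sign. The causes were not tested. In the remaining 66 settings a count stayed within 1.5 times and a median within 0.1 log2.

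No paired analysis was possible because each condition has 1 array. Signals near the dimmest present calls and the absence of replicates limit what these arrays can show.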
